A study of Mus musculus with 924 samples.

Results

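Adult dentate granule nuclei are described here one against another: which genes follow the number of genes detected in a nucleus, which genes are on in some nuclei and off in others, which genes vary together, and what differs between preparations. The members are 236 of the 305 nuclei from unsorted dentate gyrus of C57BL/6 mice at 12 weeks, in a series of 924 single hippocampal nuclei. They were chosen on measured values: Prox1 above 0, at least 2 of the 5 genes C1ql2, C1ql3, Fam163b, Glis3 and Sema5a above 0, and Gad2 at 0. The labels give 5 sets of these nuclei, A1-P1-DG, A1-P2-DG, A2-P1-DG, A3-DG and A4-DG, which hold 44, 45, 39, 58 and 50 members. The number after A is called the preparation, so preparation 1 has 2 sets and preparations 2, 3 and 4 have 1 each. The labels do not say whether it counts animals, so a p-value of a slope speaks of the spread between preparations alone. A p-value for a difference between preparations is set against the spread between the 2 sets of preparation 1, with a prior shared by all genes. Dissected tissue was fixed in RNA-later, and its nuclei were sorted singly into plates for full-length cDNA libraries. Nuclei that pass the same rule at 4 weeks (20 and 49 nuclei) and at 2 years (42 and 60), also from C57BL/6 mice, and 49 sorted dentate gyrus nuclei at 12 weeks serve as further sets. The sorted set came from vGAT-Cre mice (Slc32a1tm2(cre)Lowl) given AAV1/2 with a Cre-dependent EYFP-KASH tag under the EF1a promoter.

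Granule cells are the principal excitatory neurons of the dentate gyrus. They receive input from the entorhinal cortex and send mossy fibres to CA3, and new ones are born throughout life. Prox1 is the transcription factor that sets and keeps their identity, C1ql2 and C1ql3 are secreted synapse organisers of the mossy fibre, and Calb1 is the calcium buffer calbindin of mature granule cells. Few of them fire at a time, so genes induced by activity are on in scattered cells.

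The deposited values are on the scale of TPM (transcript abundance corrected for transcript length), and are called values below. A level is log2(value + 1), and a gene is detected in a nucleus above a value of 1. The median number of detected genes was 4807, 4378, 4845, 4709 and 4888 in the 5 sets in the order above, and single nuclei ranged from 2496 to 6697. The medians of the sets thus lay close together beside the range within each of them. Reads per nucleus are not in the table. A relative depth was recovered from the spacing of the low values, and its correlation with the number of detected genes lay between r = 0.45 and r = 0.76 in the 5 sets. The part of depth in the detection shares given below was not tested.

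**Figure D1:**
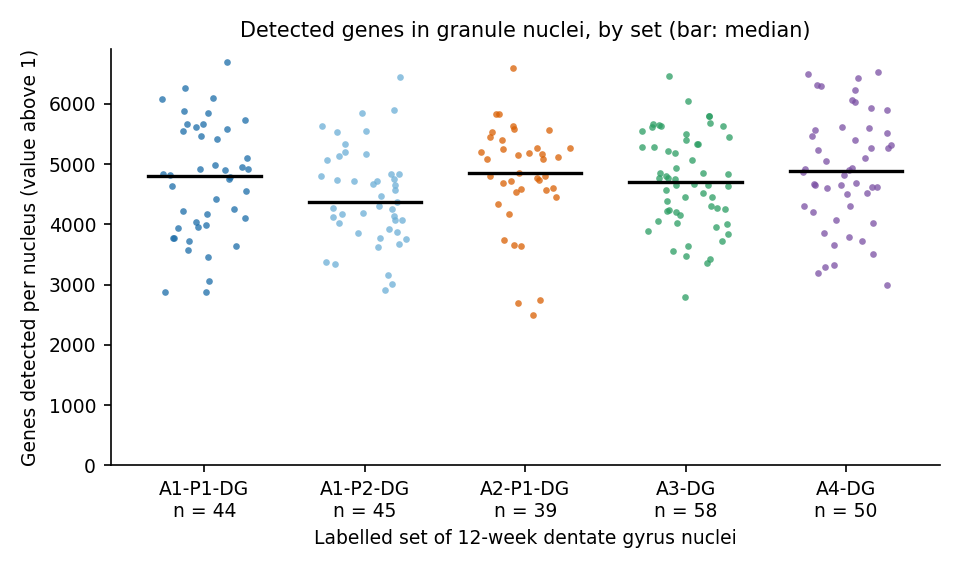
Each point is a granule nucleus, placed by its labelled set (x axis) and by its number of genes with a value above 1 (y axis), and bars mark medians. The 5 medians lie between 4378 and 4888 genes, while single nuclei range from 2496 to 6697.

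The markers of the rule describe the members and support nothing. Prox1 was detected in every member, as the rule requires, and Fam163b in 97.0% (93.1% to 100% across the 5 sets). C1ql2 was detected in 89.4% (86.4% to 92.3%) and C1ql3 in 91.1% (79.5% to 96.0%), lowest in A2-P1-DG. Calb1 and the calmodulin-binding peptide gene Pcp4, which the rule did not use, were detected in 80.1% (72.7% to 84.6%) and 87.7% (79.5% to 91.4%). At the edge of the rule, 3 members had exactly 2 of the 5 granule genes and 158 had all 5. Just outside it, 1 nucleus had 1 of the 5 genes, 6 lacked Prox1 and 19 had Gad2 above 0.

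Markers of other cell types differed in how far they were detected. Of 6 astrocyte markers 5 were detected in under 10% of members (Slc1a3 in 29.2%), of 4 endothelial markers all 4 were, with Cldn5 at 0 in every member, and of 5 microglial markers 4 were. The median summed value of each of these 3 short lists was 0 in every set. A longer list of 10 astrocyte markers had set medians of 158 to 238 TPM and 36% of members with at least 2 of them, and it includes the bicarbonate transporter gene Slc4a4, detected in 81.8% of members. Of 6 oligodendrocyte markers 4 were under 10%, but the myelin gene Mbp was detected in 54.7% of members, and the set medians of the summed list ran from 0 to 54.9 TPM, with each nucleus rescaled to the total of TPM. Of 7 GABAergic markers 6 were under 10%, with Gad2 at 0 by the rule. Gad1, which makes GABA and is also known from granule cells, was detected in 63.1% (47.7% to 76.9% across sets). The sum of the GABAergic list had set medians of 10.9 to 80.1 TPM, beside 2939 to 3216 TPM for the 6 granule markers. The rule sets a part of this contrast, since it used Gad2 and, of those 6 markers, Prox1, C1ql2, C1ql3 and Fam163b. A longer GABAergic list of 10 genes had 95.6 to 204 TPM, with Adarb2, an RNA-editing enzyme homologue, detected in 55.1%. Of 7 CA pyramidal markers 3 were detected in at least 10% of members (Wfs1, Cpne7 and Dkk3), and 8.90% of members had at least 2 of the 7. Of 3 mossy cell markers Drd2 was at 0 in every member and Csf2rb2 was detected in at least 10%. The part of these other markers in the results below was not tested. The immature granule genes Sox11 and Neurod1 were each detected in 52.5% of members and Dcx, a microtubule protein of young neurons, in 19.5% (13.6% to 33.3%). A narrower group of 170 members, with at most 1 marker of each other class, serves below as a check.

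Most genes were detected more often in nuclei that detect more genes. For each gene the slope of its level on the number of other detected genes was taken within each preparation, and the 4 slopes were tested against 0 with limma. Of 8252 genes detected in at least 20% of members, 4974 rose with the number of detected genes (60.3% called, adjusted p under 0.05) and 0 fell, with 0 negative slopes at an unadjusted p under 0.05 as well. The median slope was 0.79 log2 units per 1000 more detected genes, and 0.80, 0.75, 0.82 and 0.79 in preparations 1 to 4. Since each gene adds to the count of genes, slopes above 0 are on average built into this measure. All 4 slopes were positive for 5353 genes and negative only for Zkscan8, a zinc finger gene, at -0.52 ± 0.29 (SE, limma adjusted p = 0.113). With relative depth as a second regressor, added after the data had been seen, 3181 genes were called. The count was 2771 without preparation 1, 3022 in the 170 narrower members and 0 with no filter on detection, where 6115 genes had an unadjusted p under 0.05.

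The slopes were carried by detection. Over the nuclei that detect a gene, the median slope of 7041 genes was -0.09, and 64.2% of them were below 0. Limma called 0 of them, with 4.74% positive and 7.31% negative at an unadjusted p under 0.05. By share of nuclei, the median slope of the level over all members was 0.62 for genes detected in 20% to 40% of them. It was 0.90 from 40% to 60%, 1.06 from 60% to 80%, 0.94 from 80% to 95% and 0.49 above 95%, so it was greatest for genes in the middle. Genes with short transcripts had steeper slopes in each of these 5 classes. From 60% to 80%, for example, genes whose longest transcript had up to 3343 bases had a median of 1.21 and those with at least 5228 bases 0.98.

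Among gene groups, the protein-making and respiratory genes had the steepest slopes. Of 76 cytosolic ribosomal protein genes 71 rose with the number of detected genes (93.4%, beside 60.3% of all genes), with a median slope of 1.38. Of 82 oxidative phosphorylation genes, whose products carry out respiration in mitochondria, 69 rose (84%), with a median of 1.22. These lists have short transcripts, with medians of 1100 and 1231 bases beside 3771 for all tested genes. Their median genes were detected in 72.5% and 53.4% of members. Of all genes detected in 60% to 80% of members 79.1% rose, and of those in 40% to 60% it was 64.2%. Rpl26, of the large ribosomal subunit, had a slope of 2.18 ± 0.29 (SE, adjusted p = 2.83e-05 by limma). Over the 4 preparations its slope lay between 1.56 and 2.93, positive in 4 of 4. The slope of the ATP synthase subunit gene Atp5h was 2.11 ± 0.28. Among the other genes with the largest slopes were Commd4 (2.29 ± 0.33), Crym, a thyroid hormone binding protein (2.24 ± 0.34), Cisd1, an iron-sulfur protein of the outer mitochondrial membrane (2.22 ± 0.31), Marcksl1 (2.21 ± 0.36) and Ppm1g (2.20 ± 0.36).

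Genes of synapses and ion channels lay nearer to the median of all genes. Of 9 GABA-A receptor genes 9 rose (median 0.96), with Gabrb1 at 1.24 ± 0.33 and the extrasynaptic subunit gene Gabrd at 1.18 ± 0.33. Of 11 voltage-gated calcium channel genes 10 rose (median 0.98), led by Cacna1a at 1.35 ± 0.31, the P/Q-type channel of presynaptic terminals. Of 16 synaptic vesicle genes 13 rose (81.3%, median 0.87), among them Cplx1 at 1.67 ± 0.36 and Rab3a at 1.59 ± 0.27. Of 12 ionotropic glutamate receptor genes 7 rose (58.3%, median 0.66), led by the kainate receptor gene Grik4 at 1.56 ± 0.33. Of 7 immediate early genes tested, induced by activity, 4 rose (57.1%, median 0.85): Jun, Homer1, Bdnf and Fosl2. Beside these shares, 60.3% of all genes rose. By detection, it was 46% of genes detected in 20% to 40% of members, 79.1% from 60% to 80% and 82.6% from 80% to 95%. Median detection was 74.2% for GABA-A and 69.9% for calcium channel genes. It was 92.4% for vesicle, 93.6% for glutamate receptor and 29.2% for immediate early genes. By share called, GABA-A, calcium channel and immediate early genes lay above genes of like detection, vesicle genes near them and glutamate receptor genes below. These lists hold only 7 to 16 genes, so a few genes set each share, and this order was not tested. Of the lists with at least 4 tested genes, those with the lowest medians were the circadian genes (0.58, 4 of 11 rose), cholesterol synthesis genes (0.52, 4 of 9), Y-linked genes (0.40, 1 of 4) and genes that mark a granule cell's position (0.37, 1 of 5).

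**Figure D2:**
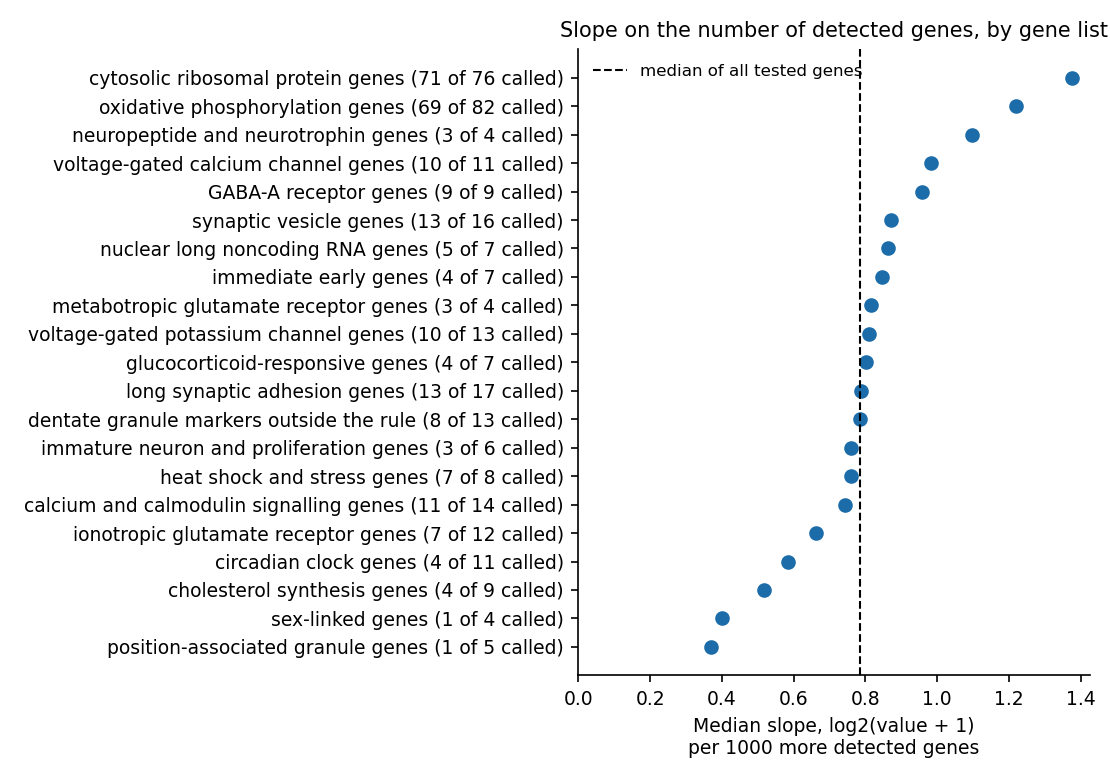
Points give the median slope of each gene list (x axis, log2 units per 1000 more detected genes) with the number of genes called of those tested, and the dashed line gives the median of all 8252 genes. Ribosomal and oxidative phosphorylation genes lie highest, at 1.38 and 1.22, and every list lies above 0.

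Granule markers differed among themselves. Of 13 tested that the rule did not use, 8 rose (61.5%, beside 60.3% of all genes), and their median of 0.78 lay close to that of all genes. Pcp4 had a slope of 1.68 ± 0.24 (SE, limma adjusted p = 4.80e-05), with 2.43, 2.11, 1.66 and 0.51 in preparations 1 to 4. Calb1 (1.2 ± 0.29) and the vesicle protein gene Synpr (1.12 ± 0.23) also passed. Genes of the rule are given without a test: Glis3 had a slope of 1.52, C1ql3 of 0.42, Prox1 of 0.36 and Sema5a of 0.12, and the rule itself sets the 100% of members that detect Prox1. The slope of Plk5, a kinase gene of mature neurons, was below 0 at -0.41 ± 0.37 (limma adjusted p = 0.307), and it was above 0 without preparation 3, at 0.06.

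At 4 weeks and 2 years, in nuclei not used above, the same limma fit called 3046 of 8918 genes (34.2%), all with positive slopes. Median slopes were 0.91 and 0.70 in the preparations at 4 weeks, and 0.86 and 0.77 at 2 years. Of the 8017 genes tested in both fits, 4878 were called at 12 weeks and 2938 at the other ages. Called in both fits were 2128 genes, which are 43.6% of those 12-week calls and 72.4% of those calls at the other ages. Such shares are to be read beside the share of all genes called in each fit. Without single preparations the count at the other ages was 1148 (without the second at 4 weeks), 963 and 1809 (without the first or the second at 2 years). Pcp4 had a slope of 2.42 there and Cisd1 one of 2.00.

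Many genes were either at a clear level in a nucleus or not detected. Of 10689 genes with a median level of at least 7 in the nuclei that detect them, 6322 (59.1%) were detected in only 20% to 80% of members. This pattern is the common one at these depths. To find the genes farthest from their peers, the share of each was set against the running median share of genes of a like level. Among the 15 genes with a name of function farthest below it were Fam195b, Guk1, Mfsd10, Ssna1, Snrpe, Ndufs8, Ccdc124, Tomm5, Fis1, Echdc2, Uckl1, Mrps12, Ndufs5 and Rilpl2. Guk1, the guanylate kinase that recycles GMP, was detected in 35.2% of members where genes of its level were detected in 82.2%. Its shares were 38.2%, 41%, 31% and 30% in preparations 1 to 4, so all 4 lay far below that value. Ndufs5, a subunit of respiratory complex I, was detected in 47% against 86%, with 41% to 53.4% across preparations. Snrpe, a core protein of the spliceosome, was detected in 24.2% against 67.4%, and in 27%, 12.8%, 22.4% and 30% of the 4 preparations. Fis1, a protein of mitochondrial fission, was detected in 40.7% against 80.9%, with 31.5% to 48.7% across preparations.

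These genes had short transcripts. The median longest transcript of the 100 genes farthest below their peers was 1153.5 bases, beside 3390 bases for all genes at a level of at least 7. The median SD of the share over the 4 preparations was 6.09 percentage points both in those 100 genes and in all 6322. Single genes varied more: Ndufs8 was detected in 20.5% of preparation 2 and in 40% to 42.7% of the others, and Mrps12 in 13.6% and 37.8% of the sets of preparation 1. Only 35 genes lay at least 30 points below their peers and 97 at least 20 points below. A short transcript gives few reads at a given value on a scale corrected for length, and the part of transcript length in these shares was not tested.

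**Figure D3:**
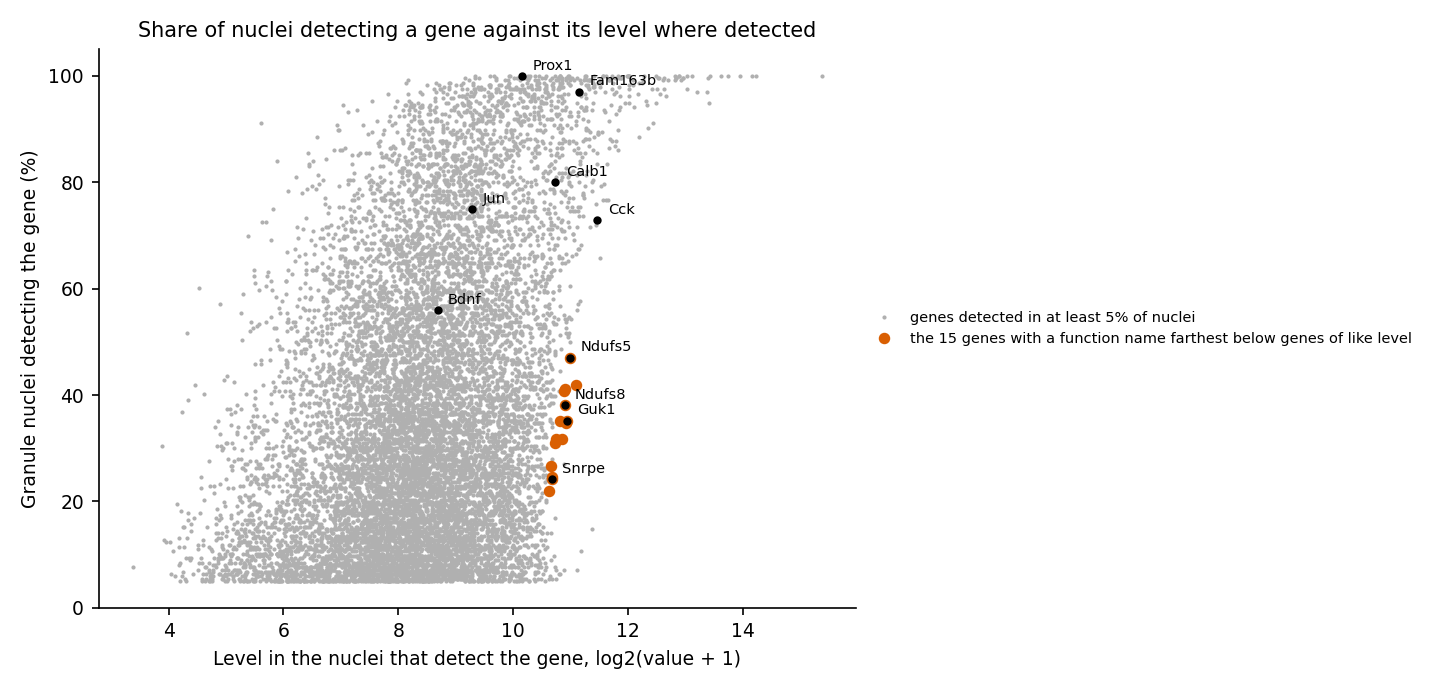
Each grey point is a gene, placed by its median level in the nuclei that detect it (x axis, log2 scale) and by the share of the 236 granule nuclei that detect it (y axis). The 15 genes with a name of function farthest below genes of like level (orange) have shares of 22% to 47% at levels where other genes are detected in most nuclei, and Prox1 and Fam163b lie at the top.

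By list, and over genes at a level of at least 7 where 59.1% of all genes met it, the on/off pattern met 72 of 86 oxidative phosphorylation genes (83.7%) and 56 of 77 ribosomal genes (72.7%). It met 7 of 10 GABA-A receptor genes, among them Gabrd, detected in 46.6% of members, and 6 of 10 immediate early genes. It met 4 of 14 granule markers that the rule did not use, Trpc6, Lct, Dsp and Plk5, detected in 65.7%, 65.3%, 58.1% and 55.1%, while 9 of the 14 were detected in over 80%. Of 15 calcium and calmodulin genes 12 were over 80%. Set against genes of a like level, the median on/off gene of each of these lists was not below its peers. The median points below were -1.27 for oxidative phosphorylation, -1.91 for ribosomal and -6.99 for immediate early genes. They were -29.9 for these granule markers and -38.1 for GABA-A receptor genes, where a value under 0 is a share above that of peers. The immediate early genes split: Jun was detected in 75% of members (66.7% to 80% across sets), Bdnf in 55.9% (39.7% to 69.2%), Homer1 in 38.1% and Egr3 in 29.2%, highest in A4-DG at 46%. Egr1 was detected in 14.8%, Nr4a1 in 4.24%, Arc in 2.12% and Npas4 in 0.85%, and Fos and Dusp1 are listed at 0 in all 236 members. So 14 of the 21 genes of this list were detected in under 20% of members. Genes known to differ with position along the dentate gyrus were also on in a part of the nuclei of each set: Lct in 57.8% to 74%, Nr2f1 in 36% to 48.9%, Gsg1l in 29.5% to 56% and Trhr in 8.0% to 20.7%. Eif2s3y, Ddx3y, Kdm5d and Uty of the Y chromosome were detected in all 5 sets, in 65.7%, 44.1%, 43.6% and 25.4% of members. Xist, the RNA of the inactive X chromosome, was detected in 0 to 10.3% of each set's nuclei and in 5.93% of all.

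The 4 preparations were then compared with each other. Means of the 5 sets were compared with limma, in which the spread comes from the pair of sets of preparation 1 and the prior shared by all genes. Each p of this test is for any difference among the 4 preparations, and which were higher or lower was read from the means. Of 8252 genes 4 differed (0.0485% called, adjusted p under 0.05), and 510 (6.18%) had an unadjusted p under 0.05. In simulated set means, a shift of 1 preparation by 2 log2 units was called for 3 of 100 genes and one by 4 units for 40 of 100. Genes that were not called may thus still differ, also by large amounts. For the median gene the 4 preparation means spanned 1.13 log2 units, and the sets A1-P1-DG and A1-P2-DG lay 0.57 apart. Nuclei resembled each other as much across preparations as within them: the median r between the levels of a pair of nuclei was 0.264 within a set, 0.260 between the sets of preparation 1 and 0.261 between preparations.

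The 4 genes were Erdr1, Cck, Arglu1 and the gene listed as ENSMUSG00000095041. Erdr1, the erythroid differentiation regulator, had mean levels of 11.3 ± 2.28, 10.9 ± 2.59, 11.6 ± 3.04 and 11.2 ± 2.66 (SD over nuclei) in A1-P1-DG, A1-P2-DG, A2-P1-DG and A3-DG, and of 7.35 ± 4.55 in A4-DG. It was detected in 94.9% to 97.7% of nuclei in those 4 sets and in 74% in A4-DG, where it was also lower in the nuclei that detect it (median level 10.2 against 11.5 to 12.6). A4-DG thus had the lowest mean (limma adjusted p over all preparations = 1.37e-07), and without preparation 4 that p was 0.977. In the other sets Erdr1 lay at 11.8 and 11.4 at 4 weeks and at 11.7 and 9.55 at 2 years.

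Cck encodes cholecystokinin, a neuropeptide. Its mean level was 9.29 ± 4.58 and 9.20 ± 4.81 in the sets of preparation 1, 5.79 ± 5.55 in A2-P1-DG, 9.87 ± 4.47 in A3-DG and 6.46 ± 5.46 in A4-DG. It was detected in 81.8%, 80%, 53.8%, 84.5% and 60% of nuclei in that order. Preparations 2 and 4 had lower means than 1 and 3 (limma adjusted p over all preparations = 7.18e-04). The median level of detecting nuclei was alike, from 10.8 to 11.8. The call was lost without preparation 2 (adjusted p = 0.0625) and in the 170 narrower members (limma adjusted p = 0.400). With the slope on detected genes removed first, Erdr1 and Cck were the 2 genes still called, with limma adjusted p of 9.38e-04 and 0.0309.

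Arglu1, a gene of splicing and transcription, had mean levels of 9.38 ± 2.02, 9.12 ± 2.63 and 9.90 ± 2.47 in A1-P1-DG, A1-P2-DG and A2-P1-DG, and of 6.58 ± 3.89 and 6.59 ± 3.76 in A3-DG and A4-DG (limma adjusted p = 8.03e-03). It was detected in 93.3% to 97.7% of nuclei in the higher sets and in 75.9% and 78% in the lower. The gene ENSMUSG00000095041 had higher means in A2-P1-DG and A4-DG (11 ± 2.17 and 10.2 ± 3.34) than in the other sets (7.34 to 7.56). Its limma adjusted p over all preparations was 5.06e-04. Without preparation 2, or in the 170 narrower members, limma called neither of them (adjusted p of 0.0543 to 0.590). Cck was low and ENSMUSG00000095041 high in the same preparations, 2 and 4. Each of these differences is between single preparations, and what else differed between them cannot be told apart.

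**Figure D4:**
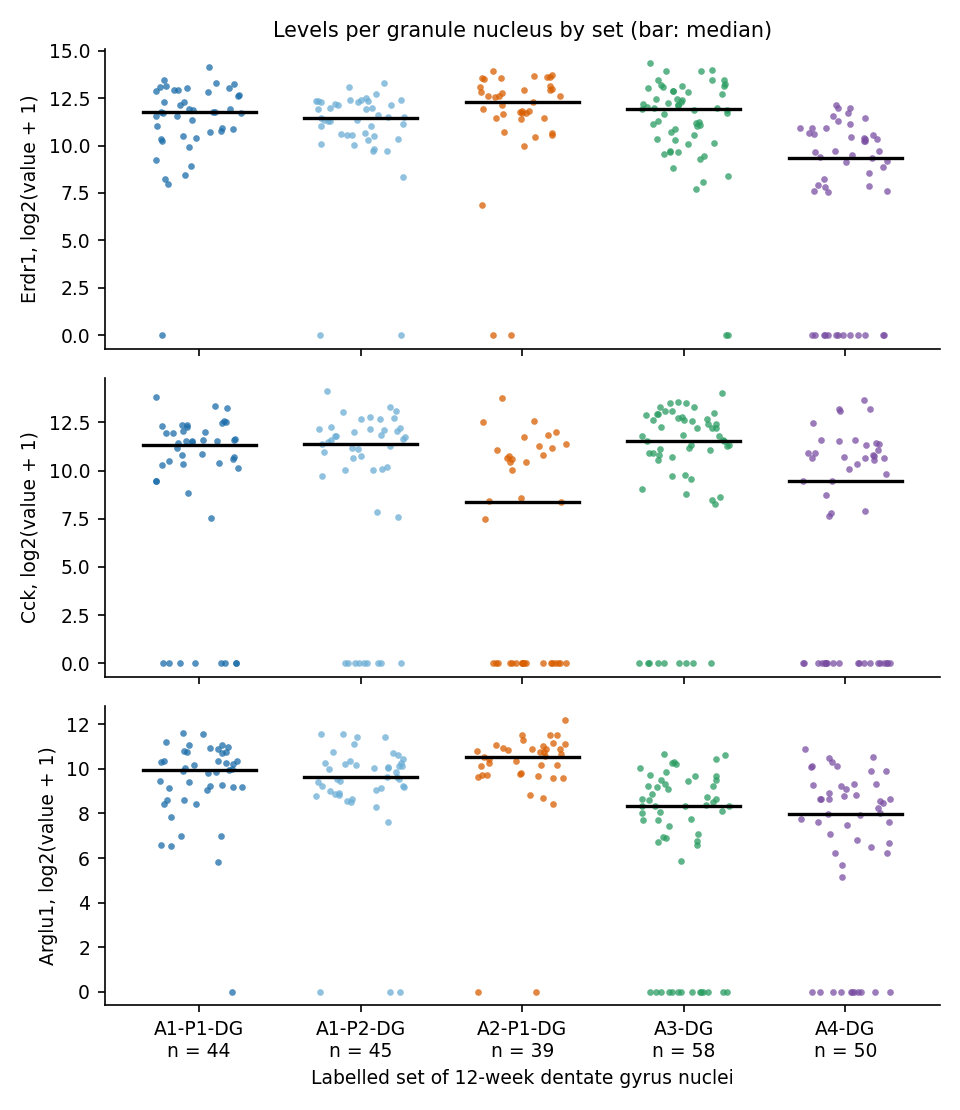
Points are nuclei, placed by labelled set (x axis) and by level of Erdr1, Cck and Arglu1 (y axes, log2 scale), and bars mark medians. Nuclei at 0 are most frequent in A4-DG for Erdr1, in A2-P1-DG and A4-DG for Cck and in A3-DG and A4-DG for Arglu1, where 74%, 53.8%, 60%, 75.9% and 78% of nuclei detect the gene.

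Lists are given by their counts, with no test of a list. Of the 13 granule markers outside the rule, 0 were called by limma and 2 had an unadjusted p under 0.05, and the preparation means of the median marker spanned 1.20 log2 units. Of 7 immediate early genes and of 5 position genes, 0 were called and 0 had an unadjusted p under 0.05. Respiratory genes had the widest range among the larger lists, with a median span of 1.69 beside 1.13 for all genes, and with 0 of 82 called and 21 (25.6%, beside 6.18% of all genes) at an unadjusted p under 0.05. For ribosomal genes these were 1.38, 0 of 76 and 14 (18.4%). Both lists also lay farther apart between the sets A1-P1-DG and A1-P2-DG of preparation 1. The median gap there was 0.84 for respiratory and 0.92 for ribosomal genes, beside 0.57 for all genes. Of 4 neuropeptide and neurotrophin genes 1 was called, Cck, and their median span was 2.74. Genes called only under another filter, where 11 genes passed, included the heat shock genes Hspa8 and Hspa5 and the antioxidant gene Prdx2, lowest in A2-P1-DG. Hspa8 lay at 10.7 there and at 12.1 to 12.4 in the other 4 sets.

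Most gene pairs did not vary together from nucleus to nucleus. With set means and the slope on detected genes removed, the median r of 34043626 pairs was 0.0008, with 1st and 99th percentiles of -0.163 and 0.167. A pair was counted at r of at least 0.3 in each of the 4 preparations, which 1310 pairs reached (0.00385%), and 208 pairs (0.000611%) were at -0.3 or below in each. Nuclei are not replicates, and these correlations are descriptions. Of the 1310 pairs, 73 were of 1 family by name or lay within 10 kb and formed no groups. The other 1237 joined 229 genes, most of them in a group of 131 genes with 1138 of these pairs and a group of 56 genes with 77. The other groups of at least 3 were Fam163b with Orai2 and Rbfox1, and Atp5b with Ctxn1 and Eef1a1. For 3 pairs r was 0.999 or above (Gm3892 with Gm10593, Apol7b with Apol7e, Amy2a2 with Amy2a3), all copies of 1 family by name, whose reads the counting may not separate.

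The group of 131 genes mixes unrelated functions. Its most linked genes with a name of function were Fgd4, an activator of the GTPase Cdc42 (60 links), Grk4, a receptor kinase (58), Cyb5r4, a reductase (55), Ces2b, a carboxylesterase (51), Zfp488, a transcription factor (51), Vmn1r58, a vomeronasal receptor (49), Hsd3b2, a steroid dehydrogenase (47), the imprinted antisense RNA Kcnq1ot1 (41) and the protease gene Mmp12 (41). The GENCODE vM21 annotation (GRCm38) holds 78 of the 131 as protein-coding, 25 as long intergenic RNA and 11 as antisense, on 20 chromosomes. The median r within the group was 0.291, and 98.5% of its pairs were above 0. Fgd4 had a level between 11.3 and 15.5, with a median of 14.2, and was detected in all 236 members. The nuclear RNA Malat1, also of the group, lay between 12.8 and 16.8.

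What these genes share was sought in their annotated transcripts, in words of 16 bases on both strands. Of the 124 genes with a transcript, 96 (77.4%) held at least 1 of 2018 words that were found in 6 or more of them at 10 or more times the share in other tested genes, and 7.92% of the 7745 other tested genes did. The words were chosen on these same genes. Words found in every second gene of the group were therefore looked for in the other 62, of which 43 (69.4%) held 1, against 5.06% of other genes. Only the genes of the group were held out in this step. The other tested genes, which include the group of 56, served to choose words rare in them, so their low shares are in part built in. The stretches below were built around words chosen in this way. In the group of 56 genes 1 (1.79%) held a word. Among other tested genes, those with a word had a median r of 0.03 with the group and those without had -0.01. A pair of stretches of 30 bases shows the sharing, each given 5′ to 3′ with its GRCm38 position and strand in annotated transcripts without coding sequence, and capitals mark letters that differ from Fgd4.
Fgd4, stretch 1, chr16:16487327-16487356, minus strand: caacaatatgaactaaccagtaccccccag
Cyb5r4, stretch 1, chr9:87061890-87061919, plus strand: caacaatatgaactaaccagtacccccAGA
Cpa6, stretch 1, chr1:10474805-10474834, minus strand: caaTaatatgaactaaccagtaccccAcag
Nktr, stretch 1, chr9:121727680-121727709, plus strand: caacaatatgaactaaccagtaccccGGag
Fgd4, stretch 2, chr16:16487916-16487945, minus strand: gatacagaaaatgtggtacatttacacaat
Cyb5r4, stretch 2, chr9:87061305-87061334, plus strand: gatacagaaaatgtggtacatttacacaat
Kcnq1ot1, stretch 2, chr7:143220502-143220531, minus strand: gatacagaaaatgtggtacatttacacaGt
Zdhhc21, stretch 2, chr4:82842693-82842722, plus strand: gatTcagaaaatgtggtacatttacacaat
Zdhhc21 holds stretch 2 on the strand opposite to the gene, as did 7 of 18 named genes for stretch 2 and 4 of 16 for stretch 1, and the others printed are on the strand of their gene. With up to 3 differences, the Fgd4 form of stretch 1 was in 18.5% of the 124 genes and in 0.529% of other tested genes, and that of stretch 2 in 22.6% and 0.271%, and in the group of 56 genes neither was found. In the 5 named genes that hold both (Fgd4, Cyb5r4, Cpa6, Zdhhc21 and Cul4a) they lay 0.59 kb apart on 1 strand, the same distance to within 7 bases. Stretch 2 has the letters of the end of the second reading frame of mouse LINE-1 retrotransposons, which is background knowledge, since no repeat annotation was used here. RSEM divides a read that aligns to several transcripts among them. The share of such reads is not in the table, and its part in these correlations was not tested.

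Of the 1237 pairs that formed groups, the 318 highest all lay in this group. Zfp488 and Fgd4 had r = 0.900 (0.85, 0.905, 0.927 and 0.931 in preparations 1 to 4). Hsd3b2 and Fgd4 had r = 0.897, and Kcnq1ot1 and Fgd4, on different chromosomes, r = 0.840. In these 3 pairs r was 0.761 or above in each preparation. The group of 56 genes is led by transcripts that are abundant in neurons: Calm2 of calmodulin (10 links), Ncdn of the calcium-signalling protein neurochondrin (9), Fth1 of ferritin (9), Chn1 (8) and the calcineurin subunit gene Ppp3ca (8). It also holds the cytoskeletal genes Actb, Tuba1a and Nefl, the glycolytic genes Gapdh, Aldoa and Tpi1, the heat shock genes Hsp90aa1 and Hsp90ab1 and the ribosomal genes Rpl8, Rpl13, Rpl13a, Rpl14, Rpl19 and Rps3a1. Its median r was 0.226, and 99.7% of its pairs were above 0. Gapdh ran from a level of 0 to 15.4 with a median of 13.

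The 2 groups went in opposite directions. Between a gene of one and a gene of the other the median r was -0.194, and 98.0% of these pairs were below 0. Of the 208 counted negative pairs, 156 joined the 2 groups and 207 held a gene of either. Ncdn and Kcnq1ot1 had a mean r of -0.483 (-0.532 to -0.446 over preparations). The mean level of the 131 genes and that of the 56 genes, each with its slope on detected genes removed, had r = -0.673, -0.816, -0.687 and -0.676 in preparations 1 to 4, and -0.263, -0.272, -0.412 and -0.303 without that step. Since the groups were formed on these nuclei, their direction is part of how they were found. The mean of the 56 genes rose with the total of values of a nucleus (r of 0.56 to 0.76 with its log2 in the 4 preparations), and that of the 131 did so less (-0.10 to 0.37). With relative depth these were 0.14 to 0.54 and -0.05 to 0.52. What part totals and depth have in the opposition was not tested.

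**Figure D5:**
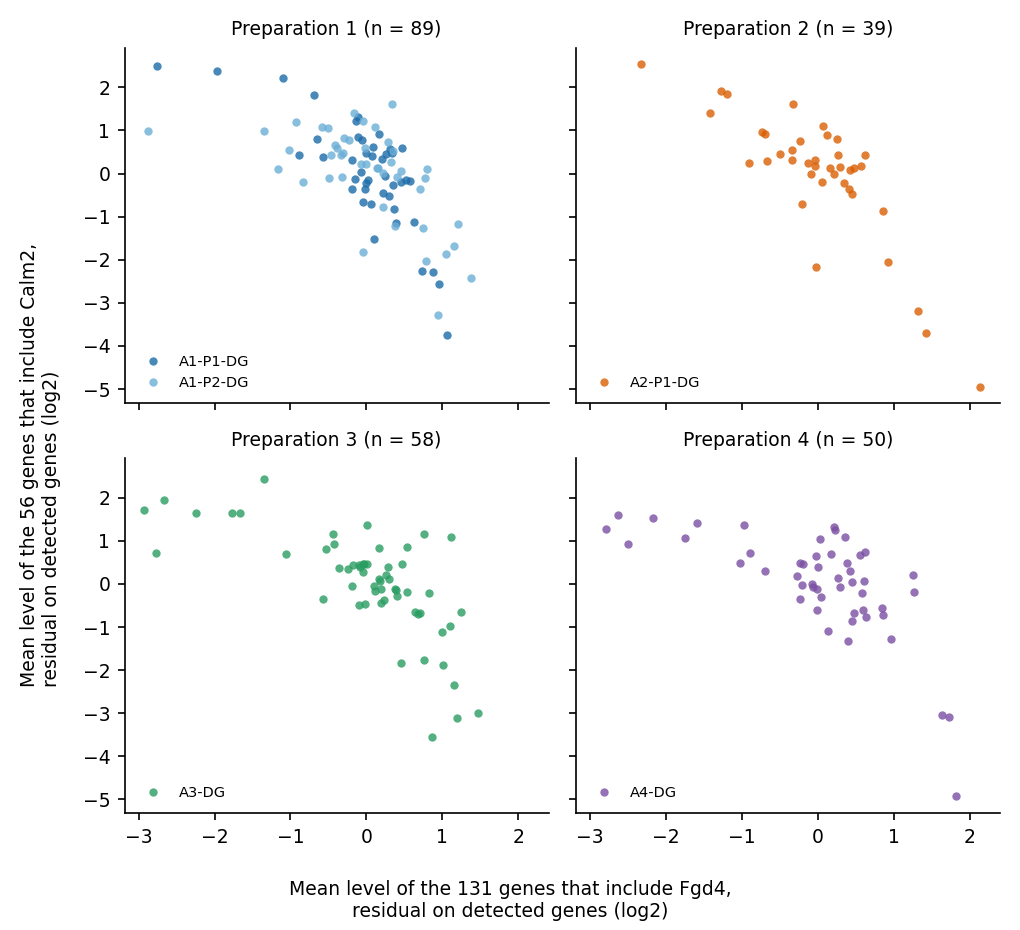
Each point is a granule nucleus, by the mean level of the 131 genes that include Fgd4 (x axis) and of the 56 genes that include Calm2 (y axis), both in log2 units after removal of the slope on detected genes within each set. In all 4 preparations nuclei high in one mean are low in the other, with r from -0.816 to -0.673.

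The same pairs were looked at in nuclei that did not choose them. Of the 1310 counted pairs, 85.2% and 90.9% had r of at least 0.3 in the preparations at 4 weeks, 89.5% and 90.3% in those at 2 years and 63% in sorted dentate gyrus nuclei. Of all pairs, 10.9%, 2.17%, 3.26%, 1.26% and 2.69% did in these sets, in the same order. The first set at 4 weeks holds only 20 nuclei, which gives its wide background. For the negative pairs r was -0.3 or below in 6.73% and 33.7% of the 208 pairs at 4 weeks, 46.2% and 46.6% at 2 years and 31.3% in the sorted nuclei, beside 10.7%, 1.94%, 3.01%, 1.17% and 2.33% of all pairs. In the first set at 4 weeks the share thus lay below that of all pairs, and the median r of the negative pairs was 0.04. Between the group means r was -0.228, -0.652, -0.683, -0.690 and -0.691 in these 5 sets.

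Few pairs within lists of related function were counted. The 14 calcium and calmodulin genes had the highest median r, 0.117, with 2 counted pairs of 91 (2.20%, beside 0.00385% of all pairs), and all pairs of genes had a median of 0.0008. More of their pairs lay above 0 than the 50.5% of all pairs: 83.5% for calcium and calmodulin genes, 92.9% for heat shock genes and 82% for ribosomal genes. The 8 heat shock genes had 0.096 and the 76 ribosomal genes 0.068, with 1 counted pair, Rpl8 with Rpl13a at r = 0.357 (0.318 to 0.437 over preparations). For the 19 granule markers, which include genes of the rule, the median was 0.031 with 0 counted pairs. The guidance receptor gene Sema5a, which the rule used, and Stxbp6 had the highest r of these markers, 0.332, and between 0.125 and 0.454 over preparations. The part of the rule in these correlations was not tested. For the 7 immediate early genes the median was 0.006, and Jun with Egr3 had the highest r, 0.180 (0.145 to 0.202). Position genes had 0.002, with Gsg1l and Rgs4 at 0.244 (0.106 to 0.519), and immature neuron genes -0.009. In the lists of activity, position and immature neuron genes 0 pairs were counted.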

How the data were processed

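RNA of single nuclei was measured by a modified Smart-seq2 protocol, per the labels' protocols. Per the submitters' processing notes, Bowtie2 (version not given in the sources used here), RSEM 1.27 and the mm10 (GRCm38) build were used. The deposited table, which the authors named log TPM, holds 25392 genes and 924 nuclei. Its values were taken as the natural log of a TPM-scale value plus 1, since in the deposited table steps between low values fitted a natural log better than a log2. The total of a nucleus had a median of 4.42 times that of TPM. Each value was transformed back, and levels are log2(value + 1) with a pseudocount of 1. Per-sample columns not used numbered 0.

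Members and gene lists were chosen with earlier results of these data known. Genes detected in at least 20% of members were tested, with Benjamini-Hochberg adjustment over all of them, two-sided, in limma 3.58.1 (R 4.3.3), on 1 slope per preparation or on means per set, with a trend in the variance. The slope fit and the fit between preparations were run on simulated data. A simulated slope of 1 was called for 11 of 50 genes, one of -1 for 19, one of 2 for 48 and one of -2 for 50. A simulated shift of 1 preparation by 2 log2 units was called for 3 of 100 genes and one by 4 for 40. Of 8052 genes simulated with no effect, 5 were called for a slope and 0 for a difference. The simulated set means held only the spread over nuclei. The correlations, on/off shares and shared words were not run on simulated data. Correlations used residuals after removal of set means and of the slope on detected genes (Python 3.11.15, numpy 2.4.6). Doublets were not called. Named genes were the 10 largest slopes, up to 4 called members of each list, the genes called between preparations, the 12 highest and 6 lowest pairs, the 3 highest of each list and the 15 genes farthest below genes of like level. Genes without a name of function were left out, and some results that this rule names are not reported here. Fgd4, Prox1 and other genes outside this rule were chosen after their values were seen. The alternatives were other filters, pseudocount 10, equal totals, the 5 sets as units, Spearman correlation, the narrower members, each preparation left out and depth as a regressor.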

Additional observations from a re-analysis of the deposited data

Results flagged for a closer look

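Of 66 groups of 4 or 5 values checked, 5 held a value apart from the rest by more than 0.829 (4 values) or 0.71 (5 values) of their whole range, and chance gives about 1 in 20. The mean level of Erdr1 in A4-DG was 7.35, beside 10.9 to 11.6 in the other 4 sets. Ndufs8, a subunit of respiratory complex I, was detected in 20.5% of nuclei in preparation 2 and in 40% to 42.7% in the others. Ccdc124 was detected in 30.8% there and in 36% to 36.2% elsewhere. Its SD over preparations was 2.6 percentage points, under the median of 6.09 for all on/off genes. The correlation between the mean of the 131 genes and the mean of the 56 genes was -0.816 in preparation 2, beside -0.687 to -0.673. That of Vmn1r58 with Fgd4 was 0.757 in preparation 1, beside 0.896 to 0.921.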

How the results depend on the processing

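The number of genes that followed the number of detected genes was 4974, and it was 3181 with relative depth as a second regressor (chosen after seeing the data), 2801 with a filter at 50% of nuclei, 3022 in the narrower members, 0 with no filter and 2771 to 4624 with 1 preparation left out. At the other ages it was 3046, with 1834 for detection in place of level, 0 with no filter (4398 at an unadjusted p under 0.05) and 963 to 3822 with 1 preparation left out. Between preparations the 4 calls became 2 with the slope removed first, 11 with a filter at 50%, 0 with no filter (3032 at an unadjusted p under 0.05), 1 in the narrower members and 1 to 9 with preparation 2, 3 or 4 left out. Preparation 1 was not left out there, since the spread comes from it. The 1310 counted pairs became 2007 with equal totals (1254 shared), 1981 without removal of the slope (1221 shared), 2539 with Spearman correlation (978 shared) and 1809 to 3572 with 1 preparation fewer to pass. On/off genes numbered 6272 to 6907 under all alternatives run, beside 6322. Of 1285 recomputed slopes of named genes, 1274 kept their sign, 1125 stayed on their side of the threshold and 145 lost the call. No paired analysis was possible because each test was made within the granule nuclei alone, so no test compares groups that share replicate numbers. Reads per nucleus are not in the table, so low shares may be set by depth.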

Other observations

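By age, Cck was detected in 10% and 10.2% of rule-passing nuclei in the preparations at 4 weeks, in 53.8% to 84.5% in the sets at 12 weeks and in 54.8% and 63.3% at 2 years. Its mean levels at 4 weeks were 1.14 and 1.10. The gene ENSMUSG00000095041 lay at 12.9 and 13.1 at 4 weeks and at 12.1 and 11.6 at 2 years. The rule of the members was also met by 14 nuclei labelled CA1 and by 18 labelled CA2/3 at 12 weeks. Rps18 had mean levels of 6.50 and 9.22 in the sets A1-P1-DG and A1-P2-DG of preparation 1.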
